A study of Mus musculus with 6 samples.

Results

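A set of 35 genes that mark endothelial cells of brain vessels, or that build the blood-brain barrier in them, was followed in cerebral cortex of mouse embryos. The genes were listed by symbol for endothelial identity, endothelial transcription factors and barrier function. The list was drawn up with earlier results of these data known. All 35 were found among the 27179 genes of the deposited table, and all 35 were among the 13885 genes tested. They comprise 10 genes of cell junctions and the cell surface, 9 of receptors and signalling, 6 of transcription factors, 7 of transporters, and 3 other genes, namely Itm2a, Ly6c1 and Plvap.

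Poly(A) RNA was sequenced from cerebral cortex at E18.5, shortly before birth, in embryos of strain C57BL/6N. The CAP1-KO group (3 libraries, FCRE3, FCRE4 and FCRE5) had the genotype Cap1flx/flx,Nestin-CRE, and the Control group (3 libraries, FF1, FF2 and FF4) was Cap1 flx/flx. Both groups thus carried the floxed Cap1 alleles. CAP1 is an actin-binding protein, and the design asks how its loss alters gene expression in this tissue. The Nestin promoter drives Cre in neural progenitors and so mainly in neurons and glia, whereas endothelial cells arise from mesoderm and enter the brain from outside. No group carried Cre without floxed Cap1, so effects of Cre and of Cap1 loss cannot be told apart.

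Capillaries of the brain are lined by endothelial cells that are sealed by tight junctions, form few vesicles and carry transporters for glucose, amino acids and lipids, which together form the blood-brain barrier. During development, neural progenitors and neurons release Wnt7a and Wnt7b, which act on endothelial cells through the receptor Fzd4 with Adgra2 (Gpr124) and Reck and turn on barrier genes through beta-catenin. Endothelial identity itself rests on transcription factors of the ETS family (Erg, Fli1) and the SOXF family (Sox7, Sox17, Sox18). In RNA of whole tissue, fewer endothelial cells and less RNA per endothelial cell cannot be told apart.

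Cap1 (chromosome 4, 122859048 to 122886076, GRCm38) fell in the CAP1-KO libraries. It had 86.6, 85.9 and 82.9 CPM (counts scaled to a common library size) in FCRE3, FCRE4 and FCRE5, against 194, 193 and 166 CPM in FF1, FF2 and FF4, a mean of 46.2% of Control (log2 fold change -1.10, limma with Benjamini-Hochberg adjustment, adjusted p = 0.000283). Cortical markers were present in every library. Neurod6, a factor of excitatory cortical neurons, had 486, 437 and 533 CPM in CAP1-KO, against 655, 689 and 451 CPM in FF1, FF2 and FF4, and Tbr1, of deep-layer neurons, had 236, 219 and 244 CPM against 332, 335 and 217 CPM. In both genes FF4 was below FF1 and FF2 and lay near the CAP1-KO libraries. FF4 and FF1 also had almost no Xist RNA (2.05 and 0.58 CPM), whereas FF2 had 2296 CPM and the CAP1-KO libraries 2398 to 2653 CPM, so the sexes were not balanced. For genes whose values rest most on FF4, the log2 fold change is therefore also given without FF4 and against FF4 alone.

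The endothelial genes spanned a wide range of levels. Per kilobase of merged exons, which allows genes to be compared, Slc7a5, a carrier of large neutral amino acids, averaged 20.5 CPM per kb in CAP1-KO and 28.9 in Control. Cldn5, the main claudin of brain tight junctions, averaged 19.3 and 24.7 CPM per kb in CAP1-KO and Control. Itm2a (19.0 and 16.1), the glucose transporter Slc2a1 (14.2 and 15.3) and the lipid transporter Mfsd2a (11.9 and 13.4) followed. At the low end in Control were Emcn, with 0.778 CPM per kb in CAP1-KO and 0.687 in Control, and Erg, with 0.644 and 0.770, whereas in CAP1-KO the lowest was Sox17, with 0.554 CPM per kb against 0.853 in Control. The ranges of Emcn and Erg over libraries overlapped, so their order was not resolved. Reads per gene and library ran from 46 to 3893. Slc7a5 and Slc2a1 are also made by other brain cells, and Slco1c1 by choroid plexus, so their levels are not those of vessels alone.

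**Figure D1:**
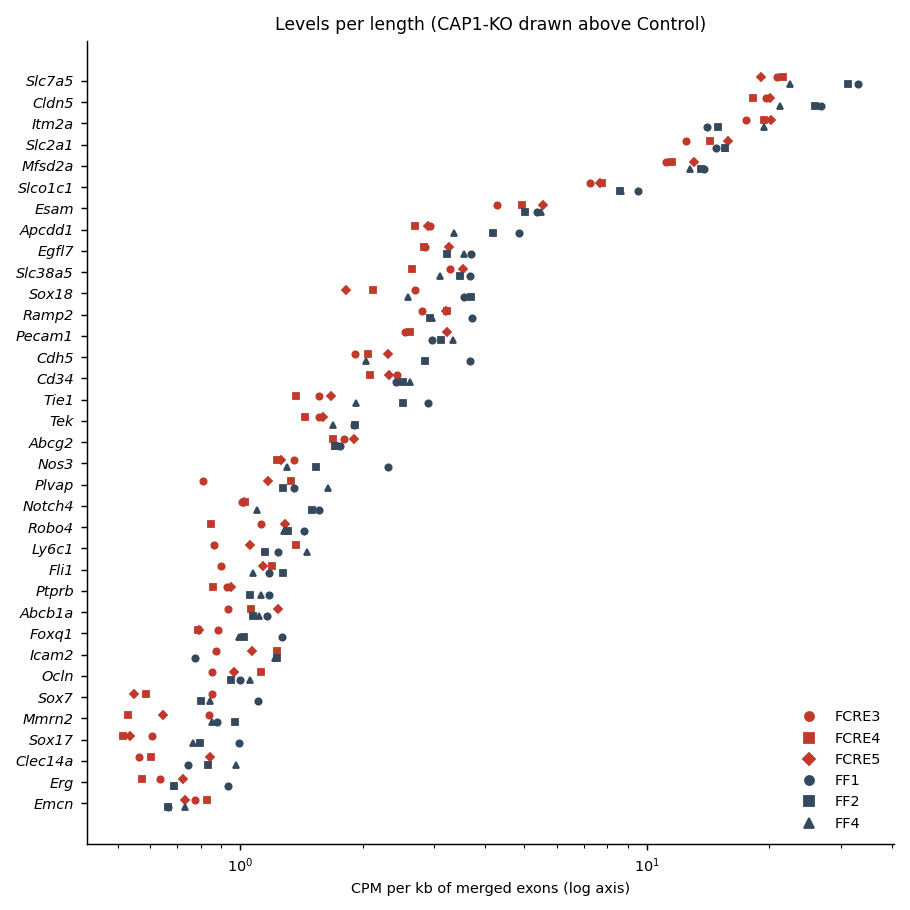
Levels of the 35 endothelial genes in CPM per kb of merged exons (log axis), 1 point per library, with CAP1-KO drawn above Control in each row. Genes are ordered by their Control level, from Slc7a5 (28.9 CPM per kb) to Emcn (0.687 CPM per kb).

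The 300 bases around the start of 4 genes are shown because they stand for the main roles (receptor, Notch signalling, transporter, junction). In addition, no CAP1-KO library reached the lowest Control library in any of them. They also differ in their content of AGGAAG, a form of the motif bound by ETS factors. Sequences are from RefSeq, GRCm38.p6, from 250 bases before to 50 bases after the start, read 5′ to 3′ on the gene's strand. AGGAAG, or CTTCCT where it lies on the other strand, is in capitals.
Tie1, chr4:118489800-118490099, minus strand: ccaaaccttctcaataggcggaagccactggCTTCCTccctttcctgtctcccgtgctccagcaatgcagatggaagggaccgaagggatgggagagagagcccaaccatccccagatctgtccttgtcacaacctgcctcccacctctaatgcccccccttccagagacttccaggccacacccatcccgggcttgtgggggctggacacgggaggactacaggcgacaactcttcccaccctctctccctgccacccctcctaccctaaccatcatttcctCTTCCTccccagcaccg
Notch4, chr17:34564045-34564344, plus strand: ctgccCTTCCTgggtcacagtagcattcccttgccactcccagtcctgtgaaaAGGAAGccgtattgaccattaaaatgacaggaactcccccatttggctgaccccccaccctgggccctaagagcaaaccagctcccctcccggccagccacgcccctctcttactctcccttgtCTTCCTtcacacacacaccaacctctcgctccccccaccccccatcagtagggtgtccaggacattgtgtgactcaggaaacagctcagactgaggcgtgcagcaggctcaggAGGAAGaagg
Slco1c1, chr6:141524104-141524403, plus strand: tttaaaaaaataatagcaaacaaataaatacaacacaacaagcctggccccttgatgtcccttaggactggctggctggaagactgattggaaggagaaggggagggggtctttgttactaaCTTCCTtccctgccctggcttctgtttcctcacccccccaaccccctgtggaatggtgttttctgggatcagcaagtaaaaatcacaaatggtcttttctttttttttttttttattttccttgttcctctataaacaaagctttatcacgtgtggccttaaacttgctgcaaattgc
Cldn5, chr16:18776597-18776896, plus strand: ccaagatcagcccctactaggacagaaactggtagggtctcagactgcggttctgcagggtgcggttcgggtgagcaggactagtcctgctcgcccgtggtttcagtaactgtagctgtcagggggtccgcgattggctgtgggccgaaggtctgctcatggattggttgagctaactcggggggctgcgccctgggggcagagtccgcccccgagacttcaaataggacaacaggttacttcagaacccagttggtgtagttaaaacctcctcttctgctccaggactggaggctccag

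Tie1 had 2 matches to AGGAAG, Notch4 4, Slco1c1 1 and Cldn5 0 in this window. Shorter or other forms of the ETS motif were not counted. The table held promoters for 19 of the 35 genes (27 promoters), and 15 of these 27 (55.6%) had AGGAAG on either strand, against 35.4% of all 32817 promoters. The genes with a match were Abcb1a, Abcg2, Cd34, Egfl7, Emcn, Erg, Itm2a, Ly6c1, Notch4, Robo4, Slco1c1 and Tie1. The CArG box, the motif bound by SRF, which the series title names, was in 0 of the 27 and in 1.63% of all promoters. These matches describe letters in a window and carry no information on binding.

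None of the 35 genes passed the test in either direction, by limma, by limma-voom or in the authors' deposited table, where the lowest false discovery rate among them was 0.0768. Of all tested genes 0.965% were called, 0.562% higher and 0.403% lower, and the authors' deposited table called 0.807% of them lower. At an unadjusted limma p under 0.05, 13 of the 35 (37.1%) were lower in CAP1-KO and 0 were higher, where 15.3% of all tested genes were lower and 7.74% higher. The log2 fold change was negative in 32 of the 35 genes (91.4%, and 28 with scaling to library totals), against 51.7% of all tested genes, and its median was -0.23 against -0.01 for all tested genes. It ran from -0.59 for Tie1 to 0.24 for Itm2a on the log2(CPM + 1) scale. Every CAP1-KO library was below every Control library in 11 genes (31.4%), where 14.6% of tested genes had that order, above in 1 gene (11.1% of tested genes), and 23 genes overlapped.

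Summed over the 35 genes, the level was 466, 474 and 499 CPM in FCRE3, FCRE4 and FCRE5, against 618, 582 and 531 CPM in FF1, FF2 and FF4. The sums did not overlap between groups, and FF4 was the Control library nearest to CAP1-KO. Such sums are weighted to abundant genes, above all Slc7a5, with a mean of 76.2 CPM in CAP1-KO and 107 CPM in Control. The median deviation from the Control mean on the log2 scale was -0.25, -0.29 and -0.11 in FCRE3, FCRE4 and FCRE5, against 0.07, -0.02 and -0.06 in FF1, FF2 and FF4. FCRE5 was thus the CAP1-KO library closest to Control. It was the highest of the 3 CAP1-KO libraries in 17 genes and the lowest in 4.

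**Figure D2:**
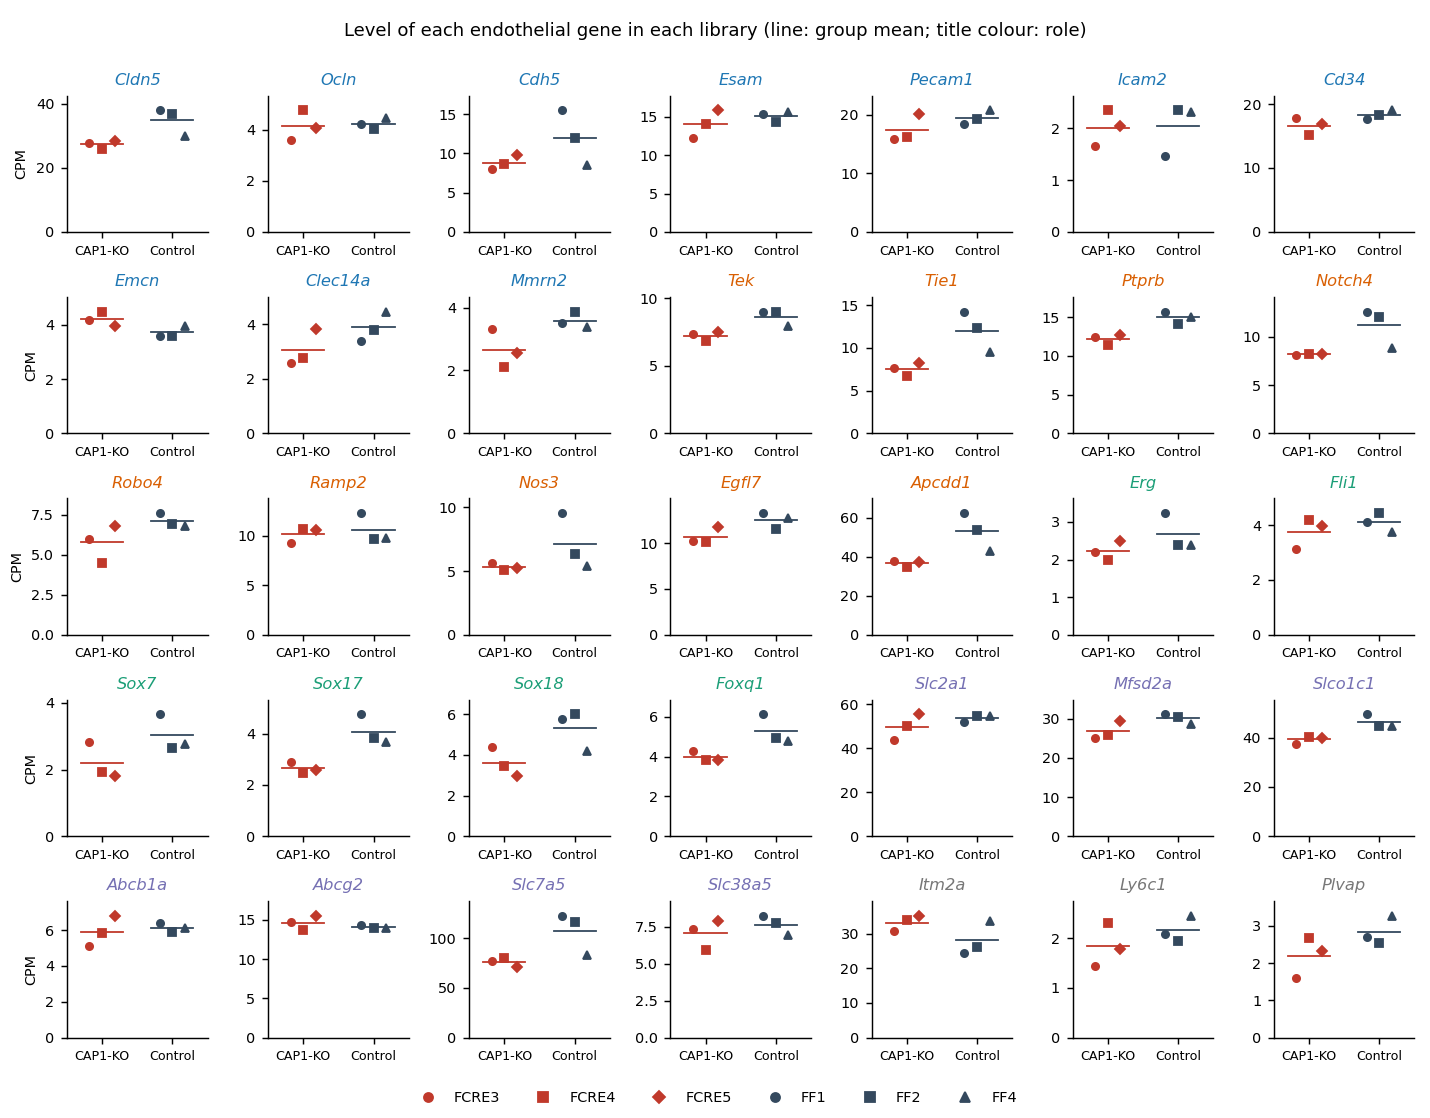
Level in CPM of each of the 35 endothelial genes in each library, CAP1-KO left of Control, with a line at each group mean. Gene names are coloured by role, and the axes start at 0. Groups are apart in 12 genes, such as Tie1 and Slc7a5, and overlap in 23, such as Ocln and Abcg2.

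Markers of other cells were set beside these values. Of 13 tested markers of microglia and macrophages all were positive, and their summed level was 102 to 133 CPM in CAP1-KO, against 69.0 to 87.9 CPM in Control. Markers of mural cells, which ensheath vessels, had a median log2 fold change of 0.00 and sums of 228 to 239 CPM in CAP1-KO, against 190 to 252 CPM in Control. Much of the spread of the Control sums was Zic1, named after its values were seen. It had 35.6, 18.8 and 68.5 CPM in FF1, FF2 and FF4, and 52.2 to 65.1 CPM in CAP1-KO. Of 5 tested choroid plexus markers 4 were positive, with sums of 60.5 to 122 CPM against 9.75 to 11.6 CPM, and Ttr rose (limma adjusted p = 0.000103). Meningeal markers, 5 of 6 tested positive, summed to 59.6 to 149 CPM in CAP1-KO, with FCRE3 the lowest, against 61.3 to 75.0 CPM in Control. Much of these sums was Pdgfra, named after its values were seen, with 43.0 to 54.9 CPM in CAP1-KO and 47.7 to 60.0 CPM in Control. The median deviation of the meningeal markers from the Control mean (log2 scale) was 0.05, 1.62 and 1.47 in FCRE3, FCRE4 and FCRE5. In FF1, FF2 and FF4 it was -0.01, -0.06 and 0.08. Red blood cell markers, 4 of 4 tested positive, summed to 138 to 249 CPM in CAP1-KO, against 153 to 166 CPM in Control. Kl, Cldn2, Foxc2 and Foxs1 were near 0 throughout. The part of these markers in the values of the endothelial genes was not tested.

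**Figure D3:**
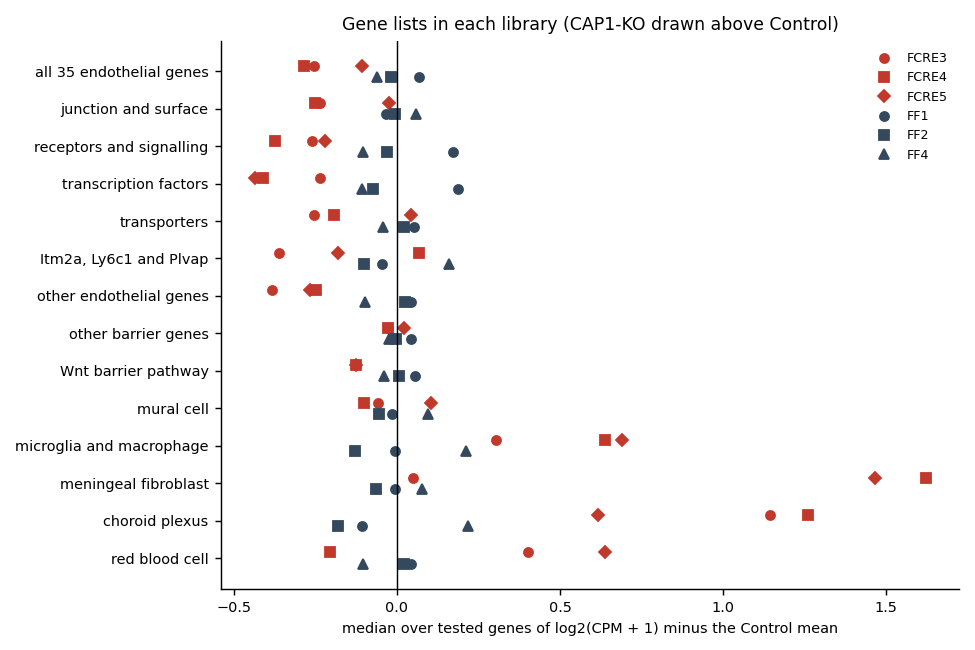
Median deviation of each gene group from its Control mean (log2 scale) in each library, CAP1-KO drawn above Control. Over all 35 endothelial genes FCRE3, FCRE4 and FCRE5 lie at -0.25, -0.29 and -0.11, and FF1, FF2 and FF4 at 0.07, -0.02 and -0.06.

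Among junction and surface genes, 9 of 10 had a negative log2 fold change (Ocln and Icam2 turned positive with library totals, at 0.021 and 0.035), with a median of -0.15, and 2 (20%) had every CAP1-KO library below every Control library, where 14.6% of all tested genes had that order. Cldn5 had 27.8, 25.9 and 28.4 CPM in CAP1-KO, against 38.1, 36.7 and 30.0 CPM in FF1, FF2 and FF4. All CAP1-KO libraries were below FF4, the lowest Control library, and the mean was 78.3% of Control (log2 fold change -0.34, SE 0.09, limma adjusted p = 0.111). Without FF4 it was -0.44, and against FF4 alone -0.13. Cdh5, the cadherin of endothelial adherens junctions, had 8.04, 8.69 and 9.74 CPM in CAP1-KO, against 15.5, 12 and 8.55 CPM in Control. Its groups overlapped through FF4, and the log2 fold change of -0.37 (SE 0.18, adjusted p = 0.270, limma) was -0.58 without FF4 and 0.04 against FF4 alone. Mmrn2, a matrix protein of the vessel wall, had 3.32, 2.10 and 2.56 CPM in CAP1-KO, against 3.49, 3.87 and 3.38 CPM in Control, with no overlap (limma adjusted p = 0.198).

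The other junction and surface genes overlapped between groups, with 1 exception. Ocln, a tight-junction membrane protein, averaged nearly the same in both groups, with 3.59, 4.76 and 4.08 CPM in CAP1-KO against 4.23, 4.02 and 4.47 CPM in Control (log2 fold change -0.03). The adhesion molecules Pecam1 (-0.16), Esam (-0.10) and Icam2 (-0.01), the sialomucin Cd34 (-0.14) and Clec14a (-0.28), a lectin that binds Mmrn2, had small negative log2 fold changes. Emcn, a sialomucin of capillaries and veins, was the 1 gene in which every CAP1-KO library was above every Control library. Its values were 4.18, 4.49 and 3.96 CPM in CAP1-KO, against 3.59, 3.60 and 3.96 CPM in Control, so FCRE5 and FF4 were equal at this precision (log2 fold change 0.14, limma adjusted p = 0.388).

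All 9 genes of receptors and signalling had a negative log2 fold change (Ramp2 was 0.014 with library totals), with a median of -0.28, and in 5 (55.6%, against 14.6% of all tested genes) every CAP1-KO library was below every Control library. Tie1, a receptor-like kinase that modulates Tek, had 7.69, 6.76 and 8.25 CPM in CAP1-KO, against 14.2, 12.4 and 9.49 CPM in FF1, FF2 and FF4. Its CAP1-KO mean was 62.9% of Control, the furthest below Control of the 35 genes (log2 fold change -0.59, SE 0.14, limma adjusted p = 0.0933, with -0.74 without FF4 and -0.30 against FF4 alone). Tek, the angiopoietin receptor also called Tie2, had 7.37, 6.81 and 7.52 CPM in CAP1-KO, against 8.98, 9.02 and 7.98 CPM in Control (log2 fold change -0.23, limma adjusted p = 0.163). Ptprb, the phosphatase VE-PTP that acts on Tek and Cdh5, had 12.4, 11.4 and 12.7 CPM in CAP1-KO, against 15.7, 14.1 and 15 CPM in Control (log2 fold change -0.28, SE 0.07, limma adjusted p = 0.107). In these 3 genes of the angiopoietin pathway the groups did not overlap, and in Ptprb FF4 lay between FF1 and FF2. The angiopoietin Angpt2, outside the 35 and chosen after its values were seen, overlapped between groups. It had 2.09, 2.38 and 2.27 CPM in CAP1-KO, against 0.93, 1.31 and 2.33 CPM in Control. Its log2 fold change of 0.40 (limma adjusted p = 0.262) was 0.62 without FF4 and -0.04 against FF4 alone.

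Notch4, a Notch receptor of endothelial cells, had 8.15, 8.28 and 8.25 CPM in CAP1-KO, against 12.6, 12.1 and 8.88 CPM in Control. The CAP1-KO values were close together, and the lower mean rested mostly on FF1 and FF2 (log2 fold change -0.39, limma adjusted p = 0.133, with -0.54 without FF4 and -0.10 against FF4 alone). Apcdd1, a membrane protein that inhibits Wnt signalling and is itself raised by it, had 37.8, 34.6 and 37.4 CPM in CAP1-KO, against 62.3, 53.8 and 43.1 CPM in Control. The mean was 68.9% of Control (log2 fold change -0.51, SE 0.12), and its limma adjusted p of 0.0919 was the lowest of the 35. It was -0.65 without FF4 and -0.23 against FF4 alone. Nos3, the endothelial nitric oxide synthase, had 5.60, 5.09 and 5.22 CPM in CAP1-KO, against 9.55, 6.34 and 5.38 CPM in Control, so FCRE3 lay above FF4. Its log2 fold change of -0.33 was -0.12 without FF1, -0.48 without FF4 and -0.02 against FF4 alone. Robo4 (-0.28), a guidance receptor of endothelium, the secreted factor Egfl7 (-0.21) and Ramp2 (-0.05), a partner of the adrenomedullin receptor, overlapped between groups.

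All 6 transcription factors had a negative log2 fold change, with a median of -0.34, and in 2 (33.3%, against 14.6% of all tested genes) every CAP1-KO library was below every Control library. Sox17, which acts in arterial identity, had 2.90, 2.46 and 2.56 CPM in CAP1-KO, against 4.74, 3.81 and 3.66 CPM in Control, a mean of 64.9% (log2 fold change -0.47, SE 0.12, limma adjusted p = 0.0946). It was -0.53 without FF4 and -0.36 against FF4 alone. The other SOXF genes, Sox18 and Sox7, overlapped: Sox18 had 4.37, 3.43 and 2.94 CPM in CAP1-KO, against 5.74, 5.98 and 4.20 CPM in Control (log2 fold change -0.46, with -0.59 without FF4 and -0.19 against FF4 alone), and Sox7 had 2.81, 1.94 and 1.81 CPM against 3.65, 2.65 and 2.78 CPM (-0.34). Foxq1, a forkhead factor enriched in brain endothelium, had 4.26, 3.82 and 3.85 CPM in CAP1-KO, against 6.12, 4.94 and 4.80 CPM in Control, with no overlap (log2 fold change -0.33, limma adjusted p = 0.136). The ETS factors Erg (-0.18) and Fli1 (-0.10) overlapped between groups.

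**Figure D4:**
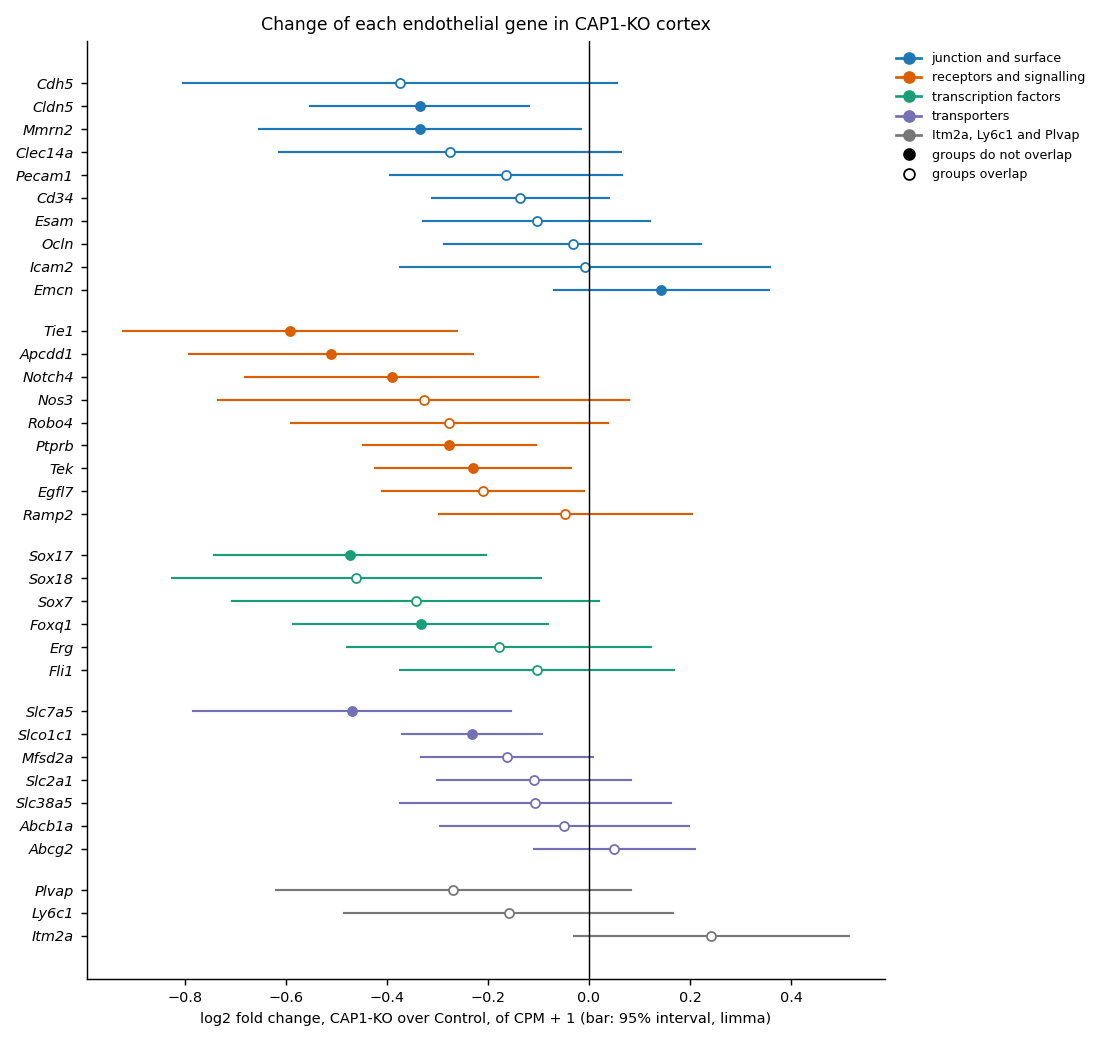
Log2 fold change of CAP1-KO over Control (limma, log2(CPM + 1) scale) of the 35 endothelial genes with 95% confidence intervals, grouped and coloured by role, filled where no library of one group overlaps the other. All receptors and transcription factors lie left of 0 (Ramp2 was 0.014 with scaling to library totals), and 13 of the 35 intervals, unadjusted, exclude 0.

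Of the 7 transporters, 6 had a negative log2 fold change (Abcb1a was 0.0074 with library totals), with a median of -0.11, and in 2 (28.6%, against 14.6% of all tested genes) every CAP1-KO library was below every Control library. Slc7a5 had 77.4, 80.3 and 70.9 CPM in CAP1-KO, against 122, 116 and 83.3 CPM in Control, a mean of 71.1% (log2 fold change -0.47, limma adjusted p = 0.114). It was -0.64 without FF4 and -0.13 against FF4 alone. Slco1c1, the thyroxine carrier, had 37.6, 40.3 and 39.8 CPM in CAP1-KO, against 49.4, 44.6 and 44.8 CPM in Control (log2 fold change -0.23, SE 0.06, limma adjusted p = 0.103). Here FF4 was level with FF2.

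The other transporters were close between groups. Slc2a1, the glucose carrier GLUT1, had 43.8, 50.3 and 55.4 CPM in CAP1-KO, against 51.7, 54.5 and 54.5 CPM in Control (log2 fold change -0.11), with FCRE5 above every Control library. Mfsd2a, which carries lysophospholipids and restrains vesicle transport, had 25.1, 26.0 and 29.5 CPM in CAP1-KO, against 31.1, 30.6 and 28.7 CPM in Control (-0.16). It is also the listed gene nearest to Cap1, 60.8 kb away (chromosome 4, 122946850 to 122961194), and of 11 tested genes within 1 Mb of Cap1, 0 passed the limma test. The efflux pumps Abcb1a (-0.05) and Abcg2 (0.05) and the glutamine carrier Slc38a5 (-0.11) overlapped between groups. Reads of Abcb1a may be shared with its paralog Abcb1b, and its gene body overlaps Rundc3b.

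Itm2a, Ly6c1 and Plvap overlapped between groups. Itm2a, a membrane protein enriched in brain endothelium, had 30.6, 33.8 and 35.1 CPM in CAP1-KO, against 24.6, 26.1 and 33.8 CPM in Control. Its log2 fold change of 0.24 (limma adjusted p = 0.260) was 0.38 without FF4 and -0.03 against FF4 alone. Plvap, which builds the diaphragms of leaky vessels and is lost as the barrier forms, had 1.61, 2.66 and 2.33 CPM in CAP1-KO, against 2.69, 2.53 and 3.26 CPM in Control (-0.27), and Ly6c1, whose reads may be shared with Ly6c2, had 1.45, 2.30 and 1.78 CPM against 2.08, 1.94 and 2.45 CPM (-0.16). Per kb of merged exons, Plvap averaged 1.11 CPM in CAP1-KO and 1.42 in Control, and Ly6c1 1.10 and 1.29. By Control level per kb they ranked 20 and 23 of the 35 genes.

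The call of individual genes turned on FF4. Without FF4, in the same limma fit on the other libraries, 13 of the 35 genes (37.1%) fell and 1 (2.86%) rose at an adjusted p under 0.05, where 18.9% of all tested genes fell and 9.36% rose. The genes that fell in that fit were Cldn5, Cdh5, Tek, Tie1, Ptprb, Notch4, Nos3, Apcdd1, Sox17, Sox18, Foxq1, Slco1c1 and Slc7a5, and Itm2a rose, with adjusted p from 0.000245 for Slc7a5 to 0.0456 for Tek (limma). Leaving out any other library gave 0 calls among the 35. Against FF4 alone, 30 of the 35 log2 fold changes were negative (85.7%, against 49.2% of all tested genes), with a median of -0.15, Tie1 at -0.30 and Sox17 at -0.36. FF4 was below both FF1 and FF2 in 16 of the 35 genes (45.7%), where 48.4% of all tested genes had that order, and above both in 10. Of the 11 genes whose groups did not overlap in the lower direction, 9 had FF4 below FF1 and FF2.

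**Figure D5:**
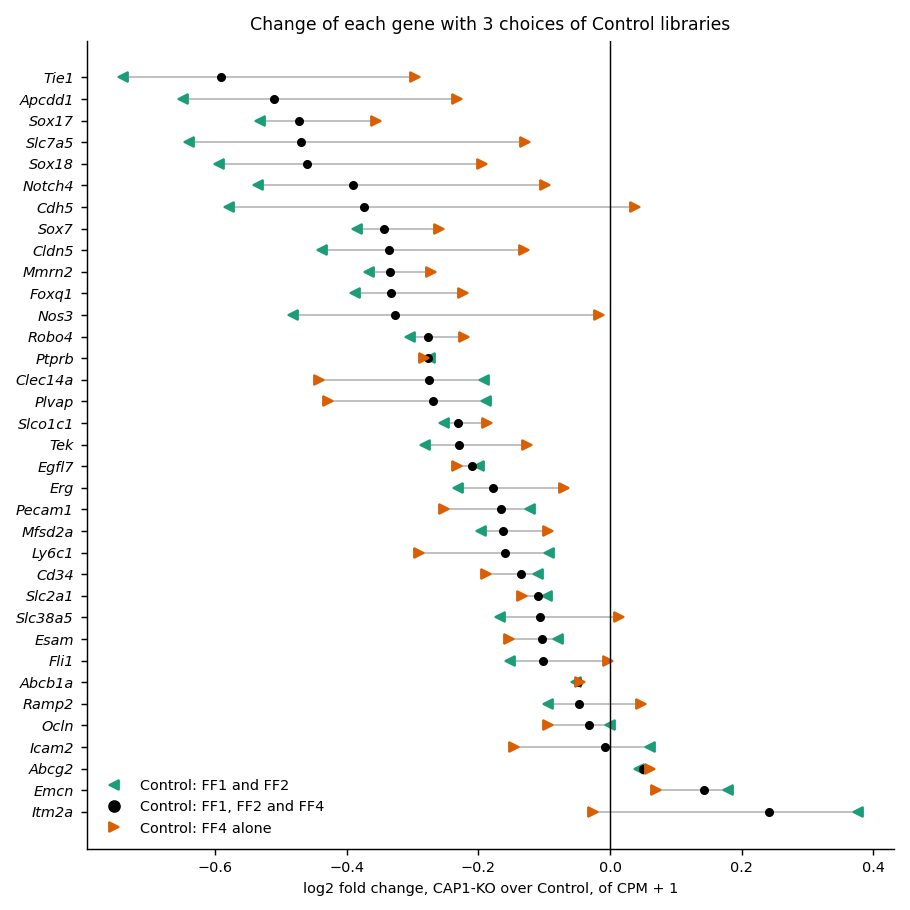
Log2 fold change of each of the 35 endothelial genes when CAP1-KO is set against FF1 and FF2, against all 3 Control libraries and against FF4 alone. Cdh5 and Itm2a lie on opposite sides of 0 with FF4 left out and with FF4 alone, and Tie1 and Sox17 are negative in each.

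Genes of the Wnt pathway that induces the barrier were described from a separate list of 20 genes, of which 19 were tested. None passed the limma test in either direction, by limma-voom 0 also, and 6 (31.6%) were lower and 2 (10.5%) higher at an unadjusted p under 0.05, against 15.3% and 7.74% of all tested genes. The log2 fold change was negative in 12 of 19 (63.2%, against 51.7% of all tested genes), with a median of -0.08. Every CAP1-KO library was below every Control library in 3 of the 19 and above in 3, where 14.6% and 11.1% of tested genes had those orders. Ctnnb1, which encodes beta-catenin, had a log2 fold change of -0.03. Wnt7b, a ligand made by neural cells, had 108, 97.3 and 110 CPM in CAP1-KO, against 172, 173 and 103 CPM in FF1, FF2 and FF4 (log2 fold change -0.46, limma adjusted p = 0.195), so FF4 was within the CAP1-KO range. It was -0.71 without FF4 and 0.03 against FF4 alone. Chosen after their values were seen, the co-receptor Adgra2 had 5.68, 6.78 and 7.61 CPM in CAP1-KO, against 10.4, 10.5 and 7.98 CPM in Control (-0.46, limma adjusted p = 0.114), and the Wnt effector Tcf7l2 had 10.3, 9.41 and 7.96 CPM, against 3.56, 3.13 and 7.89 CPM (0.89, limma adjusted p = 0.125).

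Other barrier genes (28 listed, 27 tested) had 0 calls by limma and by limma-voom, with 5 (19%) lower and 3 (11%) higher at an unadjusted p under 0.05, near the 15.3% and 7.74% of all tested genes, and a median log2 fold change of -0.04. The reelin receptor Lrp8 (-0.22, limma adjusted p = 0.175) and the taurine carrier Slc6a6 (-0.26, limma adjusted p = 0.0942) are named as the 2 tested genes of the list with the highest mean read level. Foxf2, a forkhead factor of brain pericytes, chosen after its values were seen, had 2.95, 3.21 and 3.91 CPM in CAP1-KO, against 5.58, 5.39 and 5.59 CPM in Control. The groups lay well apart with FF4 at the level of FF1 and FF2, and the limma adjusted p was 0.0545. Every CAP1-KO library was below every Control library in 3 of the 27 genes, Foxf2 among them, and above in 3. The 3 above, also named after their values were seen, were Ctsh (0.40, limma adjusted p = 0.124), Cldn12 (0.23, 0.159) and Tfrc (0.23, 0.135). Of all tested genes 14.6% were below and 11.1% above in this way.

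Other endothelial genes (36 listed, 30 tested) did include calls: 4 of the 30 fell and 0 rose by limma, where 0.403% of all tested genes fell. By limma-voom 4 fell as well. The authors' deposited table called 9 of the 30 lower and 0 higher, where it called 0.807% of all tested genes lower. The median log2 fold change was -0.31, 24 of 30 were negative (80.0%, against 51.7% of all tested genes), and in 17 of 30 (56.7%, against 14.6%) every CAP1-KO library was below every Control library. The 4 genes that fell by limma were receptors and surface proteins of vessel growth and the clotting factor carrier Vwf. Flt1, a receptor that binds VEGF and limits its action, had 9.73, 11.4 and 10.3 CPM in CAP1-KO, against 18.8, 20.4 and 16.8 CPM in Control (log2 fold change -0.77, SE 0.09, limma adjusted p = 0.0118). Kdr, the main signalling receptor for VEGF, had 33.8, 34.6 and 38.1 CPM in CAP1-KO, against 45.2, 50.9 and 45.9 CPM in Control (-0.40, SE 0.07, limma adjusted p = 0.0462).

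Eng, a co-receptor for TGF-beta family ligands, had 13.4, 12.7 and 11.8 CPM in CAP1-KO, against 23.9, 21.3 and 18.4 CPM in Control (-0.70, SE 0.10, limma adjusted p = 0.0279). Vwf had 13.0, 14.9 and 14.7 CPM in CAP1-KO, against 21.1, 21.9 and 18.9 CPM in Control (-0.51, SE 0.08, limma adjusted p = 0.0390). In all 4 genes FF4 was above every CAP1-KO library. The calls did not hold throughout: leaving out FCRE3, FCRE5 or FF1 ended all 4, leaving out FF2 ended those of Eng, Vwf and Kdr, and leaving out FCRE4 or scaling to library totals ended that of Kdr. With no filter Flt1 passed and the other 3 did not. With Xist as a covariate 0 of the 4 passed, but among Control libraries only FF2 had high Xist. That fit therefore set CAP1-KO largely against FF2 and had little power. The log2 fold changes of the 4 were negative in all 14 alternatives. They ran from -0.89 to -0.63 for Flt1, -0.79 to -0.51 for Eng, -0.59 to -0.39 for Vwf and -0.51 to -0.34 for Kdr. Against FF4 alone they were -0.63 for Flt1, -0.51 for Eng, -0.39 for Vwf and -0.36 for Kdr. That fit has 1 Control library, so whether the 4 calls hold in it is not weighed here. Without FF4, 15 of the 30 (50%, against 18.9% of all tested genes) fell, and the highest adjusted p over 14 alternatives was 0.184 for Flt1, 0.266 for Eng, 0.468 for Vwf and 0.353 for Kdr.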

How the data were processed

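RNA of E18.5 cerebral cortex was measured in 3 CAP1-KO and 3 Control libraries, which the labels call biological replicates. Strand-specific poly(A) libraries were sequenced, per the labels' protocols. The builds mm10 and GRCm38 and the tools edgeR and STAR were named in the submitters' processing notes. How reads were counted, and whether by strand, was not given in the sources used here. Division of reads between paralogs (Abcb1a and Abcb1b, Ly6c1 and Ly6c2) and between overlapping genes is therefore uncertain, and the gene bodies of Cd34, Nos3, Egfl7, Abcb1a and Plvap overlap another gene of the table.

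The authors deposited log2 values of normalized counts for each library, per the file headers. The authors' own comparison of CAP1-KO with Control was deposited beside them as log2 fold changes, an F score and a p-value with its FDR. Columns were assigned to groups from the genotype in their names. Once a shared offset of 0.0584 CPM was taken off, 100% of values were whole reads to within 0.01. Depth came to 33509504 to 36302598 reads in CAP1-KO and 32443864 to 35229159 reads in Control, so that 1 CPM was 31.2 to 37.3 reads. No replicate pair was within sampling noise.

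Genes averaging at least 1 CPM (13885 genes) were tested on log2(CPM + 1) with limma 3.58.1 (R 4.3.3, trended prior), adjusted over all of them by Benjamini-Hochberg at 0.05. This scale understates the change of low genes. With 3 libraries a group, the smallest exact permutation p is 0.1. The text names all 35 endothelial genes, Cap1 and, from each further list, the called genes or, with none called, the 2 of highest expression. Others are marked as chosen after their values were seen. Single-gene results of some markers are not reported here. The gene set, the lists and the tests were chosen with earlier results of these data known. In simulated reads for CAP1-KO against Control over 13885 genes, 69% of 100 genes changed 1.5-fold and 84% of 100 genes changed 2-fold were recovered, with 15 unchanged genes called. Of the 35 endothelial genes 34 lay within 1.5-fold on the log2(CPM + 1) scale, and recovery of such smaller changes was not simulated. The simulated folds were set on mean counts, a different scale. By mean CPM, Tie1 (62.9% of Control) and Sox17 (64.9%) lay beyond 1.5-fold. Noise was drawn for each gene separately, so a shift of 1 library shared by many genes, as in FF4, was not included. Alternatives were TMM factors, library totals, limma-voom, no filter, a pseudocount of 0.1, Xist as a covariate, each library left out and, added after seeing the data, the deposited log2 values unaltered and CAP1-KO against FF4 alone. Exon lengths came from GENCODE, coordinates and promoters from RefSeq GRCm38.p6.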

Additional observations from a re-analysis of the deposited data

How the results depend on the processing

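The count of called endothelial genes stayed at 0 of 35 under all alternatives except the fit without FF4. The median of the 35 log2 fold changes ran from -0.26 to -0.15 over the 14 alternatives, its smallest size against FF4 alone (-0.15), and 26 genes were negative in each. With library totals 28 were negative, with the Xist covariate 29. TMM factors gave the deposited scaling again. Leaving out 1 library at a time gave 0 to 13 endothelial genes lower and 0 to 1 higher, 33 to 1299 of all tested genes higher and 3 to 2623 lower, 0 to 1 Wnt pathway genes higher and 0 to 5 lower, 0 to 5 other barrier genes higher and 0 to 6 lower, and 0 to 2 other endothelial genes higher and 0 to 15 lower. All genes higher numbered 23 with the Xist covariate and 43 against FF4 alone, and all genes lower numbered 20 with no filter, 3 with the Xist covariate and 12 against FF4 alone. Against FF4 alone, the median log2 fold change of the other endothelial genes was -0.25. Other endothelial genes lower numbered 1 with no filter and 0 with the Xist covariate, a fit that set CAP1-KO largely against FF2. The cause was not tested.

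Some small log2 fold changes turned positive. These were, with library totals, Ocln (0.021), Icam2 (0.035), Ramp2 (0.014), Abcb1a (0.0074) and Ctnnb1 (0.032), with the Xist covariate Ocln (0.029), Ramp2 (0.083) and Abcb1a (0.00057), and against FF4 alone Cdh5 (0.037), Ramp2 (0.047), Slc38a5 (0.013), Ctnnb1 (0.0060) and Wnt7b (0.032). Itm2a turned negative against FF4 alone (-0.026). With 1 library left out at a time, values spanned -0.117 to 0.047 for Ocln, -0.152 to 0.079 for Icam2, -0.103 to 0.056 for Ramp2, -0.139 to 0.036 for Abcb1a and -0.064 to 0.014 for Ctnnb1. No paired analysis was possible because the library columns do not carry the replicate numbers of the labels. Depth was not limiting for the abundant genes, whereas the lowest held 46 reads in a library, and read counts cover counting error only.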
